A study of Mus musculus with 25 samples.

Results

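Lymphatic endothelial-like cells were a set of 97 cells among 12059 lung cells kept from 5 single-cell RNA-seq libraries. The libraries came from Lin- cells, a population the study enriched for fibroblasts by removing cells that stained for CD45, CD31 or CD326, so the 97 cells are endothelial-like cells that were still present after a sort against the endothelial protein CD31. Of 13900 barcodes, a cell was kept where it showed between 200 and 7500 genes and no more than 20% of its UMIs, the counted RNA molecules, were mitochondrial. A kept cell was a member if it held at least 1 UMI of at least 3 of the 4 genes Prox1, Mmrn1, Flt4 and Ccl21a. The same counts of the same cells thus chose the members, and the levels of these 4 genes in them are a description that no test supports.

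All mice carried Col1a1-CreERT2, a tamoxifen-inducible Cre driven by the Col1a1 promoter, and floxed Fas (Fas fl/fl). The naive group received no bleomycin, and the other 4 groups received bleomycin, a drug that injures the alveolar epithelium and is followed by fibrosis, and were sorted at week 3 or week 6. The groups named Fas-/- had been given tamoxifen and the groups named Fas+/+ corn oil, so the deletion and the drug that induced it cannot be told apart. The Cre was built for collagen-producing cells and its activity in lymphatic endothelium was not measured here. Each single-cell library was a pool of 4 mice and there was 1 library per group, whereas bulk RNA-seq of sorted Lin- cells had 4 libraries per group. The labels call the tissue fibroblast, and 8338 kept cells met a rule of at least 3 of 5 fibroblast genes with at most 1 lymphatic and 1 blood endothelial marker.

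Lymphatic vessels drain fluid and immune cells from the lung and are lined by an endothelium of its own kind. Prox1 is the transcription factor that sets and holds lymphatic identity, Flt4 encodes VEGFR3, the receptor for the lymphatic growth factor VEGF-C, Mmrn1 encodes the secreted multimerin 1, and Ccl21a encodes the chemokine CCL21, which draws dendritic cells and T cells that carry CCR7 into the vessel. Initial lymphatics, which take up fluid, are known for Lyve1, whereas collecting vessels hold valves whose cells are known for Foxc2. Blood endothelium shares junction genes such as Cdh5 and Cldn5 with lymphatic endothelium.

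In the annotation of the mouse build GRCm38, Prox1 lies on chr1:190118035-190170714 on the minus strand, Mmrn1 on chr6:60924976-60989378 on the plus strand, Flt4 on chr11:49609263-49652739 on the plus strand, and Ccl21a on chr4:42772860-42773993 on the minus strand, and all are protein-coding. Near Ccl21a stand nearly identical copies, among them Gm21541 on chr4:41903610-41904743 on the plus strand. Their 870-base transcripts differ by G24A, T159A, C269T, C640T, T812C and G856A, counted from the first transcribed base with the base of Ccl21a written first, which leaves 99.3% identity. Only T159A and C269T lie in the 402-base coding sequence, in exons 2 and 3. These exons are shown in GRCm38, in the direction of transcription, because a read from them is told apart by a single base, printed as a capital.
Ccl21a exon 2: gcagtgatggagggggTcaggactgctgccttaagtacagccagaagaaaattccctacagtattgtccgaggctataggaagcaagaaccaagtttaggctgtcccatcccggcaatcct
Gm21541 exon 2: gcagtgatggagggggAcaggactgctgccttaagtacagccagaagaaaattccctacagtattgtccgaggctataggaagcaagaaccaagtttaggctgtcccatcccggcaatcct
Ccl21a exon 3: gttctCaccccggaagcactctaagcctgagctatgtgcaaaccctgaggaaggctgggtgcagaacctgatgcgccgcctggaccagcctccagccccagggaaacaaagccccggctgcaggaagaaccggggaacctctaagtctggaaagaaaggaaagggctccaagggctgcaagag
Gm21541 exon 3: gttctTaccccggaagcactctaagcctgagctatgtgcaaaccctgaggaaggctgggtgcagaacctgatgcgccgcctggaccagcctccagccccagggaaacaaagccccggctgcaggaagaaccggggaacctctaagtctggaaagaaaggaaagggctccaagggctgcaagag

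Exon 2 of Ccl21a is chr4:42773643-42773763 and exon 3 is chr4:42773366-42773548, and the matching exons of Gm21541 are chr4:41903840-41903960 and chr4:41904055-41904237. The members held 19565 UMIs of Ccl21a and 203 of Gm21541, the latter in 58 cells, and the other kept cells held 900 and 4. Per 100 Ccl21a UMIs, Gm21541 had between 0.765 in the Fas-/- week 6 library and 1.91 in the Fas+/+ week 3 library. The copies Gm13304, Ccl21b and Ccl21c had 5, 0 and 2 UMIs in the members. How reads were divided among these copies is uncertain, so values of Ccl21a and Gm21541 are those of a gene group counted mostly at Ccl21a.

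Some barcodes were present in more than 1 library. In all, 1502 kept cells shared a barcode with a kept cell of another library, 344 of them among the 603 cells of the naive library. Of the members, 2 had a shared barcode, and leaving out every shared barcode left 95 members of 10557 cells. These 2 members had 16967 and 64783 UMIs, whereas the cells that shared their barcodes were shallow, with 502, 656 and 708 UMIs. A doublet caller, Scrublet, marked 46 cells (0.381%), which is too few to have worked on 12059 cells, and none of the 46 was a member. The study's sort had excluded doublets, and its gene limit was kept here.

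The members were not spread evenly over the libraries. The naive library had 0 members among 603 cells, the Fas+/+ week 3 library 14 of 2664, the Fas-/- week 3 library 10 of 2608, the Fas+/+ week 6 library 51 of 3240 and the Fas-/- week 6 library 22 of 2944. The shares were 0.526% (95% exact binomial interval 0.288 to 0.880), 0.383% (0.184 to 0.704), 1.57% (1.17 to 2.06) and 0.747% (0.469 to 1.13) in the 4 libraries after bleomycin. The count of 0 in the naive library allows a share of up to 0.498% by the limit of 3 counts, and its 95% exact binomial interval reaches 0.610%. The shares of both week 3 libraries lie within that interval, so a difference of either from naive was not detectable at this depth. Intervals cover counting error only, and with 1 library per group no test between groups was made.

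**Figure D1:**
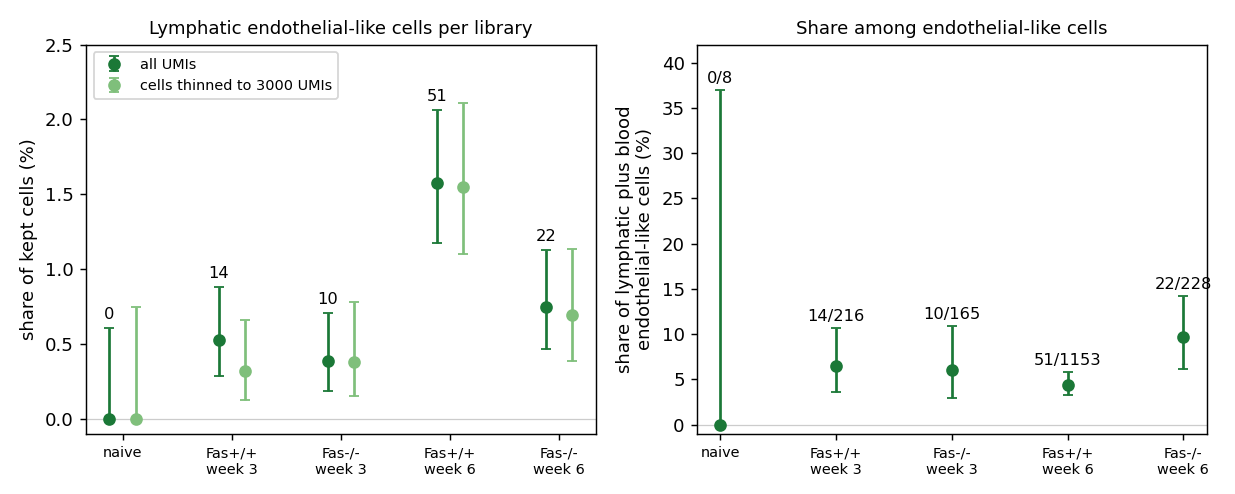
Left, share of kept cells (%) that were lymphatic endothelial-like in each of the 5 libraries, with all UMIs and after thinning each cell to 3000 UMIs, and with the number of members above each point. Right, members as a share (%) of lymphatic plus blood endothelial-like cells. Bars are 95% exact binomial intervals, which cover counting error only. The Fas+/+ week 6 library had the highest share of kept cells (1.57%), whereas the Fas-/- week 6 library had the highest share of endothelial-like cells (9.65%).

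The kept cells held 5615583 UMIs in the naive library and between 17075858 and 35004216 in the others, a gap that mostly follows the number of cells. Per kept cell the median was 7876 UMIs in the naive library, 8896 and 5768 in Fas+/+ and Fas-/- at week 3 and 7151 and 8675 at week 6. To compare shares at 1 depth, cells were thinned to 3000 UMIs, which left out 2846 shallower cells (110 naive, 476 Fas+/+ and 764 Fas-/- at week 3, 723 Fas+/+ and 773 Fas-/- at week 6). After thinning, 68 of 9213 cells were members, with shares of 0 in the naive library, 0.320% and 0.380% in Fas+/+ and Fas-/- at week 3, and 1.55% and 0.691% at week 6. The order of the week 3 libraries turned over, and that of the week 6 libraries did not.

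Blood endothelial-like cells, defined by at least 3 of Cdh5, Emcn, Ptprb and Flt1 and at most 1 lymphatic marker, were the comparison class. They numbered 1673, with 8 in the naive library, 202 and 155 in Fas+/+ and Fas-/- at week 3, and 1102 and 206 at week 6. Of lymphatic plus blood endothelial-like cells, the members made up 6.48% (3.59 to 10.6) of 216 and 6.06% (2.94 to 10.9) of 165 at week 3, and 4.42% (3.31 to 5.78) of 1153 and 9.65% (6.15 to 14.2) of 228 at week 6, in Fas+/+ and Fas-/-. The Fas+/+ week 6 library thus held the most members and the smallest share of them among the endothelial-like cells of the 4 libraries that had members. The sort removed CD31-positive cells, so these shares describe what was left after it, and how far the sort set them was not tested. Over all 5 libraries the members were 5.48% of 1770 endothelial-like cells.

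The rule sorted cells by how many of the 4 markers they held, so the marker UMIs on each side of it are a description. Of the kept cells, 11038 had none of the 4 markers, 882 had 1, 42 had 2, 17 had 3 and 80 had all 4. Just inside the rule, the 17 cells with 3 markers had medians of 0 Prox1, 5 Mmrn1, 3 Flt4 and 24 Ccl21a UMIs, and a median total of 1805 UMIs. Just outside it, the 42 cells with 2 markers had medians of 0 Prox1, 0 Mmrn1, 1 Flt4 and 1 Ccl21a UMIs, although they were deeper, with a median total of 7774.5 UMIs. Cells with all 4 markers had medians of 3, 22, 7 and 138 UMIs. The ranges overlapped, since cells with 1 marker reached 355 Ccl21a or 7 Mmrn1 UMIs, while cells with 3 markers went down to 0 Ccl21a and 1 Mmrn1 UMI.

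The 17 cells were missing Prox1 in 11 cases, Flt4 in 4 and Ccl21a in 2, and Mmrn1 was present in every member. Of the 42 cells with 2 markers, 34 came from the Fas+/+ week 6 library and 26 also had at least 3 blood endothelial markers. Requiring 2 of Prox1, Mmrn1 and Flt4 and leaving Ccl21a unread, an alternative chosen after the data were seen, gave 103 members.

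**Figure D2:**
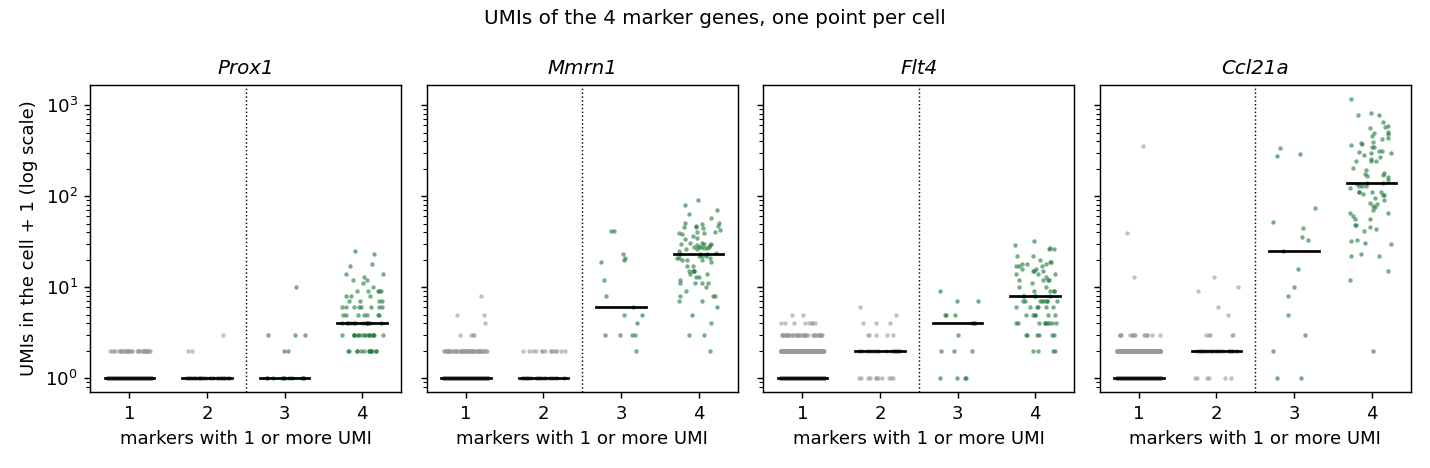
UMIs (plus 1, log scale) of Prox1, Mmrn1, Flt4 and Ccl21a in each cell, set out by how many of the 4 markers the cell held (1 to 4). Each point is a cell, black bars are medians, and the dotted line is the rule, with members in green. Medians for Ccl21a were 1 UMI in cells with 2 markers, 24 with 3 and 138 with 4.

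Among the members, Ccl21a had the widest range, from 0 to 1171 UMIs, with a median of 224 per 10000 UMIs of the cell and a highest value of 787. Mmrn1 had a median of 29.4 per 10000, Flt4 of 10.4 and Prox1 of 5.67. The members held 95.6% of all Ccl21a UMIs in kept cells. A Ccl21a UMI was also seen in 3.36% of fibroblast-like cells (median depth 9915 UMIs) and 4.12% of blood endothelial-like cells (median depth 5117), against 97.9% of members (median depth 5293). Prox1 was seen in 88.7% of members, 0.120% of blood endothelial-like and 0.360% of fibroblast-like cells.

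Genes outside the rule were used to check the name. Pecam1, which encodes CD31 itself, had a UMI in 82 of the 97 members, the tight-junction gene Cldn5 in 93, the VEGF receptor gene Kdr in 87 and Cdh5 in 78. Of lymphatic genes outside the rule, Reln, a secreted glycoprotein, was seen in 89 members and Nrp2, a coreceptor for VEGF-C, in 89, whereas the membrane protein gene Pdpn was seen in 62. Reln was seen in 0.418% of blood endothelial-like and 0.180% of fibroblast-like cells, while Nrp2 was seen in 13.6% and 57.8% of them and Pdpn in 2.87% and 29.8%.

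Blood endothelial markers were common among the members. Of the 97, 33 also had at least 3 of the 4 blood endothelial rule genes Cdh5, Emcn, Ptprb and Flt1, with 3 of 14 and 3 of 10 in Fas+/+ and Fas-/- at week 3 and 21 of 51 and 6 of 22 at week 6. These 33 cells were deeper, with a median of 8535 UMIs against 3981 in the other 64, and without them 406196 of the members' 822174 UMIs were left. The part of blood endothelial RNA or of joined cells in the results was not tested, and class comparisons were repeated without the 33.

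Markers of leukocytes, epithelium and mural cells were low in the members. The leukocyte list had 0 UMIs in 3 of the 4 libraries and 3 UMIs in the Fas+/+ week 6 members (5.73 counts-per-million of UMIs, or CPM, led by Lyz2), with Ptprc at 0. The epithelial list had 0, 0, 24.8 and 15.3 CPM in Fas+/+ and Fas-/- at week 3 and Fas+/+ and Fas-/- at week 6, led by Sftpc, with Epcam and Cdh1 at 0. The mural list summed to 147, 91.3, 243 and 61.1 CPM in the same order, led by Acta2, with Rgs5 and Notch3 at 0.

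The fibroblast list of 8 genes was the exception. It summed to 587, 5038, 1129 and 239 CPM in the members of these libraries, led by Inmt, Dcn, Col1a2 and Col3a1, against 1365, 2016, 1461 and 1107 in the blood endothelial-like cells. The Fas-/- week 3 members, 10 cells, stood highest, but a single cell held 258 of their 276 UMIs of the list, among them 46 of 48 of Col1a1 and 43 of 47 of Col3a1. That cell had 16967 UMIs, all 4 lymphatic markers, 5 of 5 fibroblast rule genes and a barcode shared with another library. Likewise a single cell of 33293 UMIs held 468 of 591 UMIs of the list in the Fas+/+ week 6 members. Without the cell richest in the list in each library, a check chosen after the data were seen, the sums of the members were 525, 476, 251 and 230.03 CPM. The blood class was not trimmed in this way, so these sums were not compared with it. In all, 16 members had at least 3 fibroblast markers, and their median depth was 14451 UMIs against 5116 in the other 81. The deepest member, in the Fas+/+ week 6 library, had 64783 UMIs and 7349 genes with 2 Prox1, 3 Mmrn1, 3 Flt4 and 0 Ccl21a UMIs, and its barcode was shared with another library. The part of fibroblast RNA or of joined cells in the results was not tested, and class comparisons were repeated without these 16 members.

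The members differed among themselves in Lyve1, the hyaluronan receptor gene of initial lymphatics. Lyve1 had a UMI in 47 members and none in 50, with 3 of 14 and 5 of 10 cells in Fas+/+ and Fas-/- at week 3 and 29 of 51 and 10 of 22 at week 6. Cells with Lyve1 were deeper, with a median of 6816 UMIs against 3499, so depth moved with detection. Blood endothelial-like cells had a Lyve1 UMI in 48.5% of cells as well, close to the share of members, whereas fibroblast-like cells had one in 0.804%. A UMI of the valve genes Foxc2 or Cldn11 was seen in 21 members, whose median depth of 8390 UMIs was above the 4431.5 of the others.

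To find which genes went with the lymphatic class, UMIs were summed per library and class and compared in the 4 libraries that had at least 10 cells of each class, with the library as a block (edgeR quasi-likelihood test). The sums rested on 47714, 54784, 523296 and 196380 UMIs of members in Fas+/+ and Fas-/- at week 3 and Fas+/+ and Fas-/- at week 6, and on 10608494 UMIs of blood endothelial-like cells. Of 7806 genes tested, 733 were higher in the members (9.39%) and 891 were lower (11.4%) at an adjusted p of 0.05, and the median log2 fold change over all genes was -0.03. Both classes were chosen by markers in these same cells, and the 8 rule genes are left out of every count. The p-values do not measure the spread between replicates of a group, since the 4 libraries came from 4 different groups. The test also draws on a spread shared over all genes, so small p-values do not rest on the spread between these 4 libraries alone. Without the Fas+/+ week 6 library, which holds most of the members' UMIs, 378 genes were higher and 592 lower, of which 372 and 571 were also called with all 4 libraries. Without the 33 members that also met the blood endothelial rule the counts were 523 and 752 of 6850 genes tested, of which 483 and 695 were also called with all members. Without the 16 members with fibroblast markers they were 619 and 889, and without shared barcodes 712 and 914.

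**Figure D3:**
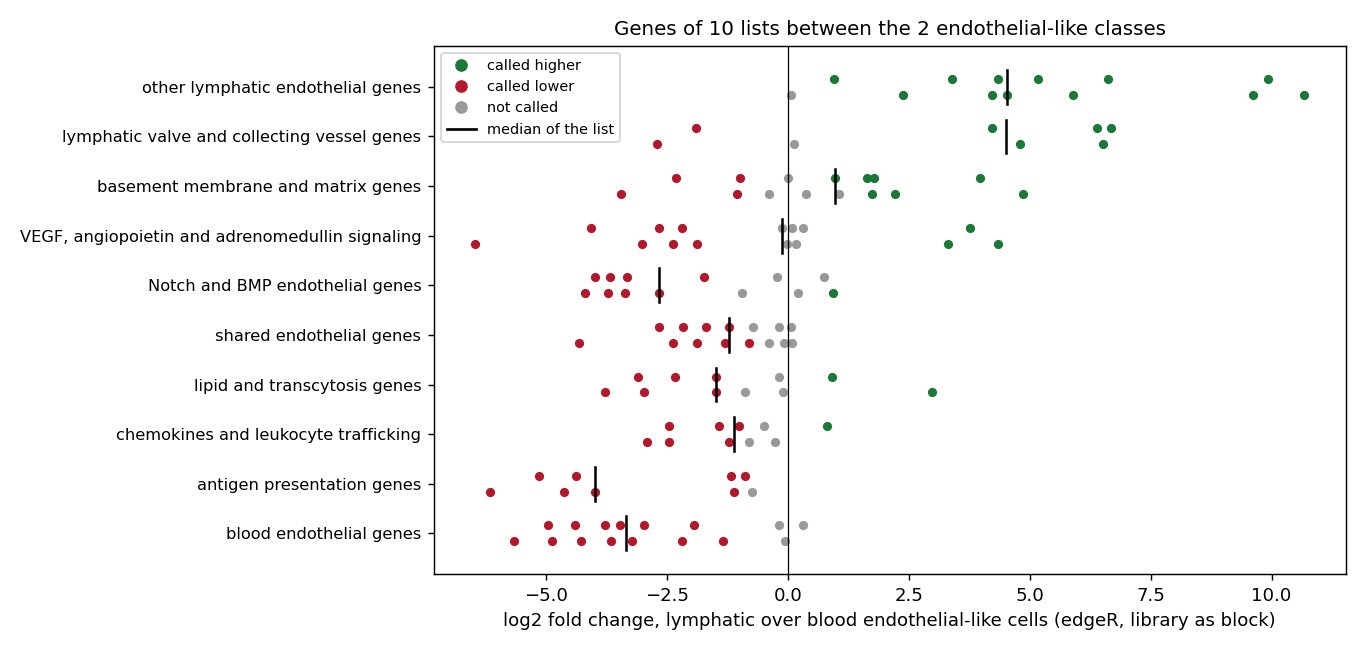
Log2 fold changes, lymphatic over blood endothelial-like cells, of the tested genes of 10 lists, 1 point per gene, with called genes in color and a black bar at the median of each list. The median was 4.54 for other lymphatic genes and -3.34 for blood endothelial genes, and genes of the matrix list lay on both sides of 0.

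Of 13 lymphatic genes outside the rule, 12 were higher in the members, none was lower and Sox18 was not called, with a median log2 fold change of 4.54. Reln had 1216, 767, 678 and 529.6 CPM in the members (798 ± 295, SD, n = 4 libraries) and 0.756, 0, 0.670 and 0.872 in the blood endothelial-like cells, in the library order given above. Every library of members was far above every library of the blood class (log2 fold change 9.92, SE 0.41, edgeR adjusted p = 3.46e-13). Tbx1, a T-box transcription factor of lymphatic development, had 224 UMIs in the members and 1 in the blood class, a ratio of 2890 with a counting interval of 513 to 114663. Nts, which encodes neurotensin, stood at 189, 329, 189 and 382 CPM against at most 0.872, yet was seen in only 21 members. The other called genes of the list were higher by between 0.95 and 6.62 on the log2 scale.

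Nrp2 was the steadiest of these genes, at 1069, 986, 1024 and 1024 CPM in the members and 43.1, 60.8, 43.1 and 51.4 in the blood class (log2 fold change 4.35, SE 0.29, edgeR adjusted p = 2.41e-10). The transcription factor genes Maf and Nr2f2 were higher by 6.62 and 3.40, Sema3d, a secreted semaphorin, by 5.89, Fxyd6, a regulator of the sodium pump, by 5.17, Pdpn by 4.54 and the integrin gene Itga9 by 4.23. Lyve1 was higher by only 0.95 (SE 0.26, edgeR adjusted p = 0.0101), and this call was lost under 4 of 14 alternatives. Sox18, a transcription factor gene of both kinds of endothelium, stood at 398, 365, 405 and 458 in the members and 363, 414, 443 and 317 in the blood class, which overlap (log2 fold change 0.06, edgeR adjusted p = 0.929). The members held several of these genes in common with fibroblast-like cells, of which 54.1% had a Maf UMI and 82.7% an Nr2f2 UMI.

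**Figure D4:**
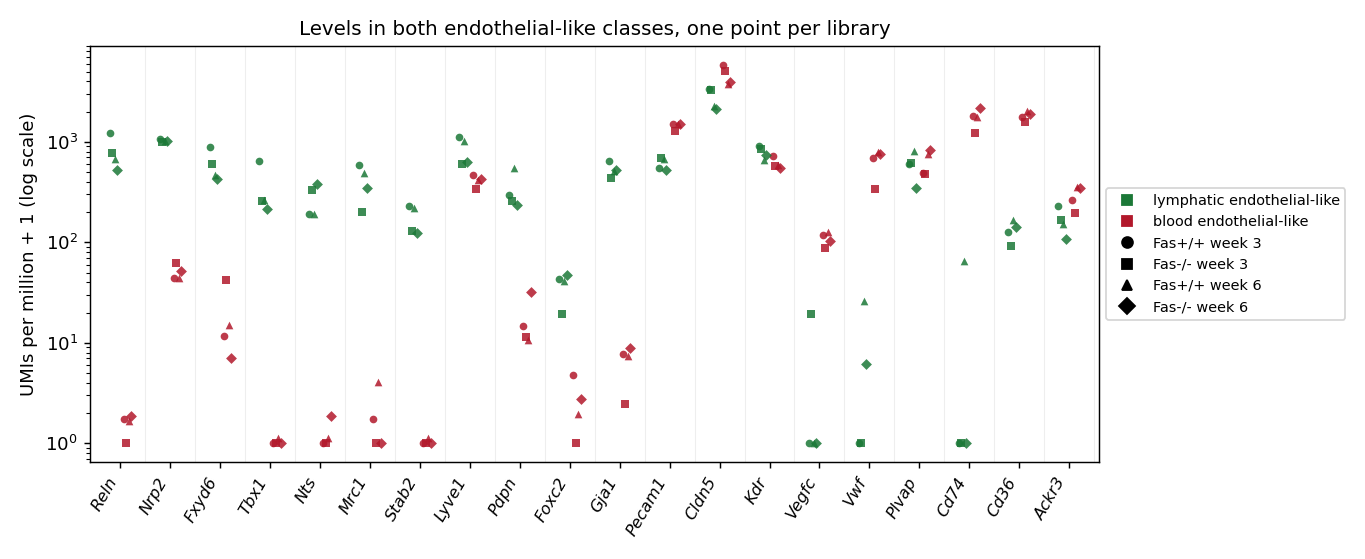
CPM (plus 1, log scale) of 20 genes in lymphatic (green) and blood (red) endothelial-like cells, 1 point per library with the library given by the symbol. Reln, Nrp2, Tbx1 and Stab2 of the members lay above the blood class in all 4 libraries, Vegfc, Vwf, Cd74 and Cd36 below it, and Kdr overlapped.

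The genes with the largest positive fold changes were, besides Tbx1, Reln and Nts, the genes Gm21541, Ptx3, Stab2, Kcnn3, Dusp2, Tc2n, Slc45a3, Thy1 and Mrc1. Gm21541 is counted with the rule gene Ccl21a, so its place here follows from the choice of members. Ptx3 encodes the soluble pattern-recognition protein pentraxin 3 and had 629, 365, 676 and 957 CPM in the members and at most 1.51 in the blood class. Stab2 and Mrc1 encode the scavenger receptors stabilin-2 and the mannose receptor. Stab2 had 231, 128, 218 and 122 CPM against a single UMI in the blood class, and Mrc1 had 587, 201, 491 and 346 against at most 3.08. Thy1, which encodes the surface protein CD90, stood at 398, 164, 348 and 489 against at most 2.27. The 12 genes were picked for large fold changes in 1 direction in every library, so their lack of overlap between the classes is close to built in, and over all 7806 genes the members lay wholly above the blood class in 10.6%. None of the 12 calls was lost in 14 alternatives.

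Of 9 genes known for lymphatic valves and collecting vessels, 8 were tested, with 5 higher and 2 lower and a median log2 fold change of 4.52. The connexin gene Gja1 stood at 650, 438, 512 and 519 CPM in the members and between 1.48 and 7.85 in the blood class (log2 fold change 6.39, SE 0.31, edgeR adjusted p = 2.00e-12). Celsr1, a planar polarity gene, was higher by 6.67. The valve transcription factor gene Foxc2 was higher by 4.81, although it was seen in only 16 members with 33 UMIs in all. Gata2, which is also known in blood endothelium, was lower in the members by 2.71 and the connexin gene Gja4 by 1.89, and Piezo1, a mechanosensitive channel gene, did not pass the test (log2 fold change 0.13). Itga9 is on this list and on that of other lymphatic genes.

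Genes that both kinds of endothelium use were lower in the members more often than not. Of 15 such genes none was higher and 9 were lower, with a median log2 fold change of -1.22. Pecam1 had 545, 694, 676 and 529.6 CPM in the members and 1491, 1283, 1509.7 and 1501 in the blood class, without overlap (log2 fold change -1.29, SE 0.28, edgeR adjusted p = 0.00135). Esam, a junctional adhesion gene, fell by 4.33 and Calcrl and Ramp2, the receptor parts for adrenomedullin, by 2.66 and 1.88. Cldn5 was lower by 0.81 with an edgeR adjusted p of 0.0493, which was lost in 8 of 14 alternatives. Tie1, Egfl7, Erg, Fli1, Sox18 and Ecscr did not pass the test, with log2 fold changes between -0.72 and 0.09. Of these, Egfl7 was lower in the members in all 4 libraries and was called lower in 6 of 14 alternatives.

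Of 18 blood endothelial genes, 16 were tested, 13 were lower in the members and none was higher, with a median of -3.34. Vwf, the gene of von Willebrand factor, stood at 0, 0, 24.8 and 5.09 CPM in the members and 694, 340, 786 and 752 in the blood class (log2 fold change -5.67, SE 0.45, edgeR adjusted p = 4.49e-09). Aplnr, the apelin receptor gene, had 3 UMIs in the members and 1215 in the blood class, a ratio of 0.0319 with a counting interval of 0.00656 to 0.0933. Ly6c1 and Sox17 fell by 4.88 and 4.40, Cd93 by 3.65, and the capillary genes Car4 and Gpihbp1 by 3.47 and 2.98. Kdr, the gene of VEGFR2, stood at 901, 858, 659 and 733 in the members and 723, 577, 587 and 549 in the blood class, which overlap (log2 fold change 0.32, edgeR adjusted p = 0.492). Within each of the 4 libraries it was higher in the members, but it was not called with the library as a block. Plvap, a gene of fenestral diaphragms, and the kinase gene Bmx did not pass the test either.

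Among the genes with the largest negative fold changes, 8 had no UMI in any member. Slc6a2, which encodes the norepinephrine transporter, had 1389 UMIs in the blood class and was at least 35.9-fold lower in the members, set against 3 counts over all members. The same bound was 20.1 for Lurap1l, 17.6 for the tubulin-modifying enzyme gene Ttll7, 15.01 for the cytokine-like gene Cytl1 and 13.1 for Grp, the gene of gastrin-releasing peptide. It was 12.7 for Rprml, 12.7 for the carboxylesterase gene Ces2g and 11.5 for Gulp1, the gene of an engulfment adaptor. Entpd1, the ectonucleotidase CD39, had 1 UMI in the members and 1230 in the blood class, and the adhesion gene Cadm1 had 2 and 2128.

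Vegfc, the gene of the ligand VEGF-C, was lower in the members. It had 1 UMI in the members and 1272 in the blood endothelial-like cells, with 0, 18.3, 0 and 0 CPM against 116, 86.0, 126 and 102. Its receptor gene Flt4 was part of the rule and is not a result, the other VEGF receptor gene Kdr was not called, and the coreceptor gene Nrp2 was higher as given above. Of the 15 tested genes of the VEGF, angiopoietin and adrenomedullin list, 3 were higher and 7 lower, with a median of -0.13. Besides Nrp2, the higher genes were Angpt2, a TIE2 ligand (147, 274, 285 and 183 CPM against 14.4, 14.8, 15.4 and 21.8, log2 fold change 3.77), and Adm, the gene of adrenomedullin (3.30). The lower genes were Vegfc, Nrp1, which encodes the coreceptor of VEGF-A and fell by 4.07, Vegfa, which fell by 3.01, the TIE2 gene Tek, which fell by 2.38, Efnb2, Calcrl and Ramp2. Ccbe1 and Adamts3, whose products process VEGF-C, were too low to be tested, with 1 and 0 UMIs in the members.

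Of 16 genes of chemokines and leukocyte traffic other than Ccl21a, 10 were tested, 1 was higher and 6 were lower, with a median of -1.12. Over all genes 9.39% were higher and 11.4% lower, so the count of higher genes lay near the background. Cxcl12, the ligand of CXCR4, stood at 189, 383, 141 and 40.7 CPM in the members and 816, 1089, 1197 and 1224 in the blood class (log2 fold change -2.92, SE 0.40, edgeR adjusted p = 7.49e-06). The adhesion gene Icam1 fell by 2.46, Cx3cl1 by 2.47, Cd200 by 1.43, S1pr1 by 1.22 and the scavenger receptor gene Ackr3 by 1.02. The call of Ackr3 was lost without either week 6 library, and its values overlapped, at 231, 164, 153 and 107 CPM in the members and 265, 196, 355 and 346 in the blood class. Ackr2, a chemokine scavenger gene known in lymphatic endothelium, was higher by 0.82 (edgeR adjusted p = 0.0186), a call lost in 5 of 14 alternatives. Ackr4 and Ccl19 had 1 UMI each in the members.

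Antigen presentation genes were lower in the members, with 8 of 9 called lower, none higher and a median of -4.00. Cd74, the invariant chain of MHC class II, stood at 0, 0, 65.0 and 0 CPM in the members and 1812, 1215, 1757 and 2185 in the blood class (log2 fold change -6.16, SE 0.56, edgeR adjusted p = 2.77e-08). The class II genes H2-Aa, H2-Eb1 and H2-Ab1 fell by 5.14, 4.63 and 4.38 and their regulator Ciita by 4.00. The class I genes H2-K1 and H2-D1 fell less, by 1.17 and 1.12. The peptide transporter gene Tap1 was lower by 0.90, a call lost in 9 of 14 alternatives, and B2m did not pass the test (log2 fold change -0.75, edgeR adjusted p = 0.0641). Even so, B2m was lower in the members in all 4 libraries and was called lower in 6 of 14 alternatives.

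Basement membrane and matrix genes went both ways, with 7 of 15 higher, 4 lower and a median of 0.98. The laminin chain gene Lama4 stood at 629, 493, 466 and 428 CPM in the members and 35.5, 25.2, 26.7 and 35.7 in the blood class (log2 fold change 3.97, SE 0.26, edgeR adjusted p = 1.78e-10). Nid2, which encodes nidogen 2, was higher by 4.86, and Lamb1, Hspg2, Lamc1, Fbn1 and Nid1 by 2.22, 1.78, 1.73, 1.64 and 0.98. Lama5, the other endothelial laminin alpha chain, was lower by 2.31, Ecm1 by 3.46, and the collagen IV genes Col4a2 and Col4a1 by 1.06 and 0.99. Nid1, Col4a1 and Col4a2 lost their call in 3, 2 and 1 of 14 alternatives, and Lamb1 in 1 of the 13 that tested it. Fibroblasts also make these proteins, and the fibroblast list moved among the members as given above. None of its 6 tested genes was called between the classes in the main fit, but some were in alternatives, such as Inmt in 4 of 14. The part of fibroblast RNA in the matrix values was not tested.

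Of 13 Notch and BMP genes of endothelium, 1 was higher and 8 were lower, with a median of -2.66. The 1 higher gene lay near the 9.39% of all genes called higher, while 11.4% of all genes were called lower. Notch4 fell by 4.20, the BMP ligand gene Bmp6 by 4.00, the inhibitory SMAD genes Smad7 and Smad6 by 3.71 and 3.69, the receptor gene Acvrl1 by 3.37 and the Notch target gene Hey1 by 3.33. Id1 stood at 0, 73.0, 162 and 494 CPM in the members and 1135, 1216, 979 and 962 in the blood class, so that the members varied more than the blood class did but did not overlap it. Jag1 was higher by 0.94, a call lost in 8 of the 13 alternatives that tested it.

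Of 11 genes of lipid handling and transcytosis, 2 were higher and 6 lower, with a median of -1.48. The fatty acid transporter gene Cd36 had 126, 91.3, 166 and 143 CPM in the members and 1787, 1562, 2012 and 1909 in the blood class (log2 fold change -3.79, SE 0.32, edgeR adjusted p = 1.18e-08). Scarb1, Gpihbp1 and Lpl fell by 3.11, 2.98 and 2.33, and the caveolar genes Cav1 and Cav2 by 1.48 each. Fabp4 was higher by 0.91 (edgeR adjusted p = 0.0437), a call lost in 12 of 14 alternatives and reversed in sign when cells meeting both marker rules were left out.

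Fas, the floxed gene, was low in the members of all libraries, at 0 and 18.3 CPM in Fas+/+ and Fas-/- at week 3 and 17.2 and 20.4 at week 6, with a UMI in 8 of 97 cells. Blood endothelial-like cells had 193, 187, 243 and 230 CPM in the same libraries (log2 fold change -3.77, SE 0.37, edgeR adjusted p = 8.18e-08). The members rest on so few Fas UMIs that the genotypes could not be compared in them, and UMIs do not show which exons a transcript holds. Of the 7 tested genes of the death receptor list, Fas was the only one called.

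Proliferation genes were seen in few members. Mki67 had a UMI in 5 members and Top2a in 8, and the Mki67 cells were 3 of 51 in Fas+/+ and 2 of 22 in Fas-/- at week 6, with 0 of 14 and 0 of 10 at week 3. The Mki67 cells had between 14419 and 64783 UMIs, all far above the median member (5293), and the deepest was the cell with 0 Ccl21a UMIs and a shared barcode, so depth moved with detection. The proliferation list of 10 genes summed to 62.9 and 73.0 CPM in the week 3 members and to 405 and 570 at week 6, led by Pcna in each library. These sums rested on only 3 and 4 UMIs at week 3 and on 212 and 112 at week 6, in Fas+/+ and Fas-/-. Blood endothelial-like cells had 85.4 and 129 CPM at week 3 and 156 and 86.3 at week 6. Of the 3 genes deep enough to be tested between the classes, Mki67, Top2a and Pcna, none was called. In alternatives, Mki67 was called higher in 2 of the 7 that tested it, Top2a in 2 of 10 and Pcna in 1 of 14.

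Between genotypes, members could be set side by side only at week 6, where both libraries had at least 20, and with 1 library each no test was possible. Across 5963 genes the median log2 ratio of Fas-/- over Fas+/+ was -0.00106. The lowest ratios were those of the monocyte chemokine genes Ccl2 and Ccl7, followed by Rasl11a, Vcam1 and Gm12840. Ccl2 had 3 UMIs in the Fas-/- members and 978 in the Fas+/+ members, but the latter came from 5 of 51 cells and 610 of them from a single cell. Ccl7 had 0 and 157 UMIs, of which 100 came from a single cell, and a single cell held 50 of 52 UMIs of Rasl11a, 27 of 41 of Vcam1 and 35 of 40 of Gm12840.

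The highest ratios were those of Idi1, Rsad2, Acyp1, S100a4 and Cenpa. Idi1, an enzyme gene of sterol synthesis, had 30 UMIs in Fas-/- and 4 in Fas+/+, with 26 in a single cell, and Rsad2, an interferon-induced gene, had 41 and 6, with 38 in a single cell. S100a4 had 39 and 18 UMIs with 20 in a single cell, and Cenpa, a centromere gene, 21 and 10 with 18 in a single cell. Acyp1, the gene of an acylphosphatase, was the one spread over cells, with 16 UMIs in 10 of 22 Fas-/- members and 5 UMIs in 5 of 51 Fas+/+ members (81.5 CPM, exact Poisson interval 46.6 to 132, against 9.55, interval 3.10 to 22.3). These intervals cover counting error only and say nothing of the spread between mice. Acyp1 was also picked for an extreme ratio among 5963 genes, so the gap between its intervals is partly built in.

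The bulk libraries, which the rule did not use, show in 4 replicates per group whether transcripts of these markers were in the sorted cells. They held between 11819700 and 25189100 counts. In bulk RNA, fewer cells of a type and less RNA per cell cannot be told apart. The study's methods describe replicates as individual animals, while the labels name no animal for a library. The 4 comparisons with naive share the same naive libraries.

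All 4 markers were higher at week 3 after bleomycin than in naive libraries, in both genotypes. Ccl21a stood at 0.0861, 0.599, 0 and 0.303 CPM of reads in naive replicates 1 to 4, at 10.6, 17.96, 17.8 and 13.9 in Fas+/+ and at 7.26, 7.31, 6.33 and 20.6 in Fas-/-. No library of either week 3 group overlapped the naive group, and replicate 4 of Fas-/- stood highest. The log2 fold change was 5.84 in Fas+/+ (SE 1.06, edgeR adjusted p = 0.000384) and 5.31 in Fas-/- (SE 1.05, edgeR adjusted p = 0.00126). The two-sided exact permutation p was 0.0286 for each, the smallest that 4 against 4 libraries can give.

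Mmrn1 stood at 0.474, 1.92, 0.860 and 0.693 CPM in naive libraries, at 43.6, 60.8, 59.2 and 42.7 in Fas+/+ week 3 and at 19.1, 19.7, 18.9 and 70.8 in Fas-/- week 3. Flt4 stood at 4.22, 8.86, 3.53 and 4.46 in naive libraries, at 135, 123, 121 and 86.4 in Fas+/+ week 3 and at 39.7, 32.8, 33.05 and 181 in Fas-/- week 3. Prox1 stood at 0.302, 0.639, 0.143 and 1.08 in naive libraries, at 6.87, 15.6, 13.2 and 9.93 in Fas+/+ week 3 and at 3.55, 4.11, 4.77 and 10.8 in Fas-/- week 3. In each gene the groups did not overlap with naive, and in Fas-/- replicate 4 lay far above the other replicates. Lack of overlap with naive is a description here and below, since its share over all genes is not given. In Fas+/+ the log2 fold changes were 5.68 (SE 1.02, edgeR adjusted p = 0.000367) for Mmrn1, 4.45 (SE 0.86, edgeR adjusted p = 0.000671) for Flt4 and 4.36 (SE 0.85, edgeR adjusted p = 0.000698) for Prox1. In Fas-/- they were 5.0, 3.76 and 3.39, all called, and these 8 calls at week 3 held when any 1 library of the compared groups was left out. Replicate 4 raised the Fas-/- means of Mmrn1, Flt4 and Prox1, which were 32.1, 71.6 and 5.81 CPM against medians of 19.4, 36.4 and 4.44. The size of these fold changes thus rested partly on that library. Flt4 was not confined to the members in the single-cell libraries. Of the 882 kept cells with 1 marker, 375 held Flt4, and 376 of the 882 had at least 3 blood endothelial markers. The part of blood endothelial RNA in the bulk values of Flt4 was not tested. Beside the 4 of 4 markers called higher, 22.1% of all 15773 genes were called higher in Fas+/+ and 17.2% in Fas-/-, and the median over all genes was near 0.

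**Figure D5:**
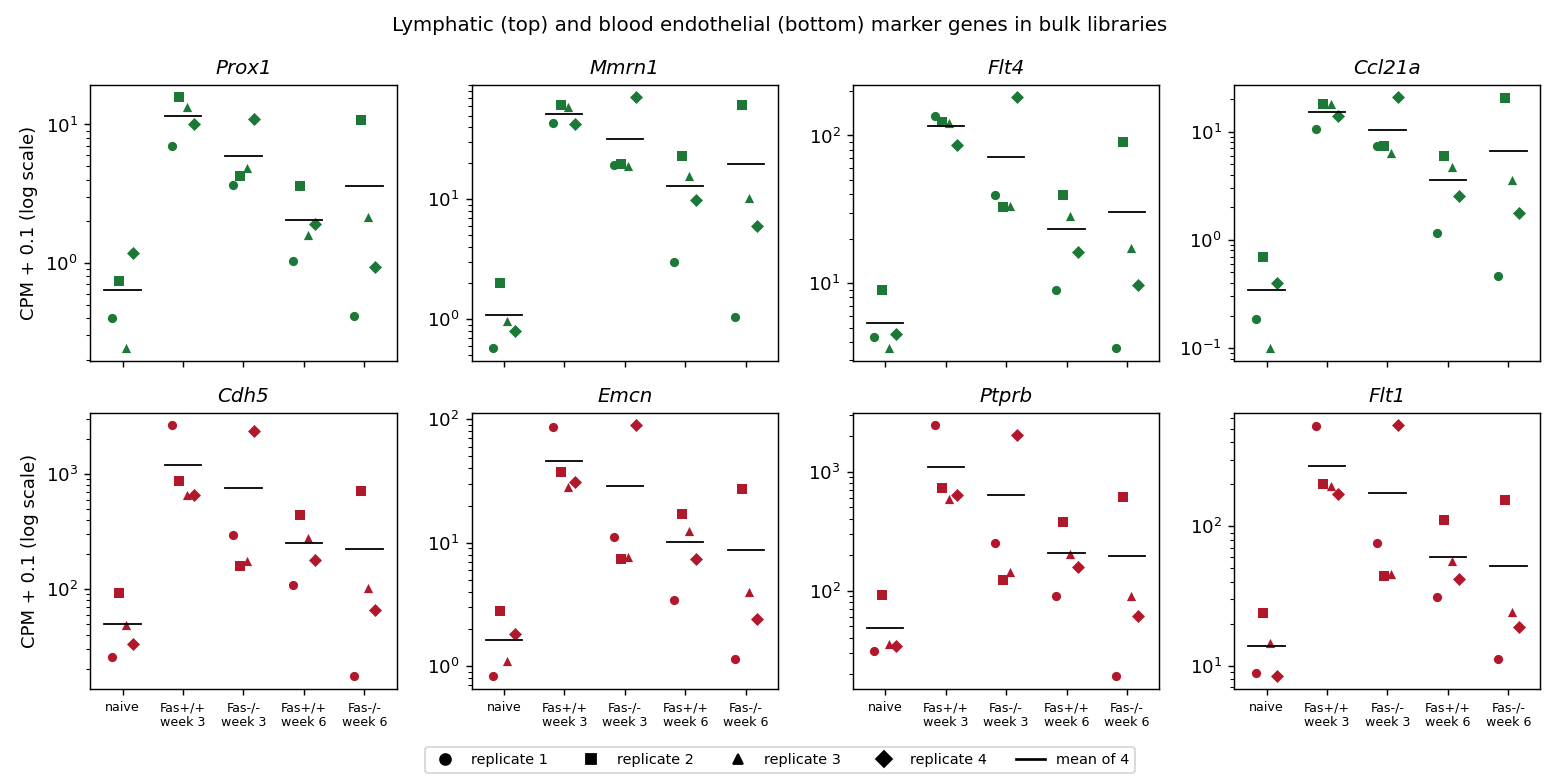
CPM (log scale) of the 4 lymphatic markers (top, green) and of the 4 blood endothelial markers (bottom, red) in the 20 bulk libraries, 1 point per library with the replicate number given by the symbol. All 8 genes were lowest in naive libraries at the level of group means, and Fas-/- replicate 4 at week 3 and Fas-/- replicate 2 at week 6 stood above the rest of their groups.

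At week 6 the values lay below those of week 3 in most libraries and differed widely within a group. Ccl21a stood at 1.05, 5.88, 4.61 and 2.47 CPM in Fas+/+ and at 0.365, 20.4, 3.50 and 1.67 in Fas-/-. Mmrn1 stood at 2.91, 23.1, 15.4 and 9.72 in Fas+/+ and at 0.940, 60.9, 10.1 and 5.90 in Fas-/-. The Fas+/+ libraries lay above naive in both genes, and in Fas-/- replicate 1 overlapped naive while replicate 2 lay within the range of the week 3 libraries.

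Against naive, 2 of 4 markers, Ccl21a and Mmrn1, were called higher at week 6 in each genotype, where 3.57% of all genes were called higher in Fas+/+ and 3.66% in Fas-/-. The log2 fold changes of Ccl21a were 3.74 in Fas+/+ (SE 1.06, edgeR adjusted p = 0.0475) and 4.63 in Fas-/- (SE 1.05, edgeR adjusted p = 0.0137), and those of Mmrn1 were 3.67 (edgeR adjusted p = 0.0346) and 4.28 (edgeR adjusted p = 0.0149). Without replicate 2 of the week 6 group all 4 calls were lost, with log2 fold changes of 3.36 and 2.80 for Ccl21a and 3.21 and 2.48 for Mmrn1. Flt4 had 8.96, 39.5, 28.4 and 16.3 CPM in Fas+/+ and 3.55, 90.7, 17.3 and 9.64 in Fas-/-, and Prox1 had 0.928, 3.49, 1.49 and 1.81 and 0.313, 10.7, 2.03 and 0.836. Neither passed the test in either genotype (edgeR adjusted p between 0.0692 and 0.247).

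No marker was called between genotypes, where 0.171% of all genes were called at week 3 and 0.0507% at week 6. At week 3 the 4 markers had log2 fold changes of Fas-/- over Fas+/+ between -0.97 and -0.53 (edgeR adjusted p between 0.758 and 0.875), and 3 of the 4 Fas-/- libraries lay below all Fas+/+ libraries in each gene. Without replicate 4 of Fas-/- they were -1.45 for Prox1, -1.42 for Mmrn1, -1.71 for Flt4 and -1.11 for Ccl21a, and still none was called. At week 6 they were between 0.38 and 0.89 (edgeR adjusted p between 0.905 and 0.988), and all became negative without replicate 2 of Fas-/-. With standard errors between 0.70 and 0.80 on the log2 scale, differences of this size were not detectable in this design.

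Lymphatic genes outside the rule were called in both directions in bulk. Of 13, 6 were called higher at week 3 in Fas+/+ and 5 in Fas-/-, and 3 were called lower in each, where 19.2% and 14.8% of all genes were called lower, so that the count of lower genes lay near that background. In Fas+/+ the higher genes were Nts (at 0 in every naive library and between 0.687 and 1.55 CPM at week 3), Reln (log2 fold change 4.79), Lyve1 (4.66), Sox18 (4.61), Tbx1 (3.87) and Pard6g (0.73). Of these, Lyve1 and Sox18 differed between the 2 single-cell endothelial-like classes by log2 fold changes of only 0.95 and 0.06. The part of blood endothelial RNA in their bulk values was not tested. Without replicate 4 of Fas-/- its calls of Lyve1, Tbx1 and Sox18 were lost (edgeR adjusted p = 0.0536, 0.0529 and 0.0786), and without replicate 1 of Fas+/+ that of Pard6g was. In Fas+/+ the lower genes were Nr2f2, Maf and Itga9, which fell by 0.72, 0.61 and 0.38, and Nrp2 had a log2 fold change of -0.12 that did not pass the test. Fibroblast-like single cells had a UMI of Reln in 0.180%, of Tbx1 in 0.204% and of Nts in 0.0360% of cells, and of Nr2f2, Maf and Nrp2 in 82.7%, 54.1% and 57.8%, and the part of fibroblast RNA in these bulk values was not tested. Of 9 valve and collecting vessel genes, 5 were called higher at week 3 in Fas+/+ (Gata2, Gja4, Celsr1, Piezo1 and Gja1) and 2 in Fas-/- (Gata2 and Piezo1), and 2 and 1 were called lower, beside 22.1% and 17.2% of all genes called higher and 19.2% and 14.8% called lower. The 2 of 9 in Fas-/- thus lay near the background, and the call of Gata2 was lost without its replicate 4, as was that of Gja1 in Fas+/+ without naive replicate 1. Foxc2 had log2 fold changes of 0.01 and -0.38 and was not called. At week 6, of the 13 other lymphatic genes, 1 was called higher in Fas+/+ (Pdpn) and 3 in Fas-/- (Reln, Nts and Fxyd6). Over all genes, 3.57% and 3.66% were called higher. In Fas-/- Reln stood at 2.04, 53.4, 11.6 and 5.46 CPM, and without replicate 2, the highest, the calls of Reln and Nts were lost (edgeR adjusted p = 0.0913 and 0.187). Those called lower numbered 1 (Maf, a call lost without replicate 2 of Fas+/+) and 0, where 1.74% and 2.81% of all genes were called lower.

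Blood endothelial transcripts moved with the lymphatic ones in the same libraries. All 4 genes of the blood rule were called higher at week 3 in both genotypes and none at week 6, with medians of 4.56 and 3.82 against 5.07 and 4.38 for the lymphatic markers. In Fas-/- week 3 the calls of Cdh5 and Ptprb were lost without replicate 4 (edgeR adjusted p = 0.0833 and 0.109). The 4 blood genes summed to 5017 CPM in that library and to 634, 333 and 375 in replicates 1 to 3. The size of the Fas-/- week 3 fold changes thus rested largely on replicate 4. At week 6 the medians of the 4 blood genes were 2.22 in Fas+/+, where 3 of 4 did not overlap naive, and 2.10 in Fas-/-, where all overlapped and the fold changes fell to between 0.24 and 0.62 without replicate 2. Cdh5 stood at 25.6, 92.8, 48.6 and 32.9 CPM in naive libraries, 2651, 874, 661 and 657 in Fas+/+ week 3 and 295, 158, 177 and 2386 in Fas-/- week 3. Replicate 4 of Fas-/- was again highest in its group. Replicate 1 of Fas+/+, the highest for Cdh5, was the lowest of its group for Prox1 and Ccl21a. For Flt4 it was the highest of its group, and for Mmrn1 it was neither the highest nor the lowest. Lymphatic less blood markers, as the difference of mean log2 CPM over 4 genes each, was -4.84 in that library against -2.79, -2.57 and -3.01 in the other Fas+/+ libraries, and -4.06 in Fas-/- replicate 4 against -2.89, -2.07 and -2.21. These 2 libraries had the most blood endothelial RNA at week 3, and the blood level is subtracted in the difference, so their low differences are partly built in. The lymphatic markers of Fas-/- replicate 4 summed to 283 CPM, the highest of the week 3 libraries. The part that the CD31 sort had in these values was not tested.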

How the data were processed

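Bulk RNA-seq and 10x single-cell RNA-seq of sorted Lin- lung cells were analysed from the deposited tables, in which the authors had aligned reads to GRCm38. For bulk libraries the authors trimmed reads, aligned them with HISAT2 and deposited raw read counts per gene made with HTSeq. For single cells the authors deposited count matrices of UMIs made with Cell Ranger 3.0.2, which list between 766 and 3675 barcodes per library, so cells had been called already, and to which the study's limits on genes and mitochondrial UMIs had not been applied. The members, gene lists and tests were chosen with earlier results of these data known.

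Cells were filtered and classed as given in the results, in Python 3.11.15 with scipy 1.17.1. Scrublet was run through scanpy 1.11.5 and its calls were not used to remove cells. UMIs of each class were summed per library and fitted with edgeR 4.0.16 in R 4.3.3 (filterByExpr with its defaults, TMM, quasi-likelihood test, library as a block), and bulk counts with the same test over all 5 groups. Benjamini-Hochberg adjustment ran over all genes tested, with calls at 0.05. Exact permutation tests were two-sided. The fits were tested on simulated data.

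Genes named between the classes were members of fixed lists and the 12 called genes with the largest fold change each way, outside the rule genes, with an average log2 CPM of at least 5 and 1 direction in every library. Between genotypes they were the 5 highest and 5 lowest ratios among genes with at least 20 UMIs. Bulk genes were the rule genes and 4 lists. Bulk replicate numbers were not used to pair libraries. Alternatives were other size factors, DESeq2 1.42.0, filters, marker rules, thinning, blocks and leaving out each library. Some genes counted in the lists are not reported here by name.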

Additional observations from a re-analysis of the deposited data

Results flagged for a closer look

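In 2 groups of bulk libraries a single replicate stood apart in all 4 lymphatic markers, by a gap test at the 95% level within groups of 4. In Fas-/- week 3, replicate 4 had 20.6 CPM of Ccl21a where the next library had 7.31, 181 of Flt4 against 39.7, 70.8 of Mmrn1 against 19.7 and 10.8 of Prox1 against 4.77. In Fas-/- week 6, replicate 2 had 20.4 CPM of Ccl21a against 3.50, 90.7 of Flt4 against 17.3, 60.9 of Mmrn1 against 10.1 and 10.7 of Prox1 against 2.03. These are 8 of 20 sets of values tested, where chance flags about 1 in 20, but the 4 genes were measured in the same libraries and are not independent. The blood endothelial markers Cdh5, Emcn, Ptprb and Flt1 were highest in the same replicates of these groups.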

How the results depend on the processing

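The number of members was 97 and went to 139 with at least 2 of 4 markers. Other definitions gave between 68, after thinning, and 103, with Ccl21a not read. Between the classes, genes called higher went from 733 to 448 after thinning to 3000 UMIs, which left 4282 genes to test, and ranged from 378 to 760 when each library in turn was left out, while genes called lower ranged from 592 to 927, with the lowest counts without the Fas+/+ week 6 library. Without the library as a block (no replicate block) 904 were higher and 1007 lower. In bulk, leaving out each replicate gave 2876 to 3726 genes higher in Fas+/+ week 3 than naive, 1989 to 2402 in Fas-/- week 3, 305 to 681 in Fas+/+ week 6 (563 with all libraries) and 322 to 484 in Fas-/- week 6 (578 with all libraries). It gave 0 to 582 genes called between genotypes at week 3 (27 with all libraries) and 0 to 20 at week 6 (8 with all libraries). DESeq2 called 858 genes higher in Fas+/+ week 6 than naive, and 167 and 170 between genotypes at week 3 and 6. Fitting the compared groups alone gave 966, 5 and 1. With the replicate number as a block, 45 and 0 genes were called between genotypes, but the labels give the numbers no meaning, and deviations of same-numbered libraries correlated between -0.464 and 0.403, with r over 0.1 in 14 of 40 pairs and between 0.0122 and 0.403 for the genotypes at week 6. Replicate 2 had the highest and replicate 1 the lowest blood marker sum in naive and both week 6 groups, but not at week 3. No lymphatic marker was called between genotypes under any of these. Without replicate 2 of Fas-/- week 6, the genotype fold changes at week 6 reversed, to -0.88 for Prox1, -1.19 for Mmrn1, -1.20 for Flt4 and -0.94 for Ccl21a, so their sign rested on that library. Over all libraries left out in turn, they ran up to 1.31, 1.06, 0.76 and 1.29. Prox1 and Flt4 were called higher in Fas-/- week 6 than naive by DESeq2 and without its replicate 1. The cause of these changes was not tested. Members rest on few cells, so single cells decide low genes, and intervals cover counting error only.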
